A study of Danio rerio with 14 samples.

Results

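Trimethylation of histone H3 at lysine 4 (H3K4me3) was compared between zebrafish embryos without Sox19b (MZsox19b) and wild-type embryos (WT). The comparison was made peak by peak, from the lists of enriched regions that the authors called in 1 chromatin immunoprecipitation sequencing (ChIP-seq) library of each genotype. On chromosomes 1 to 25, the MZsox19b list held 42524 peaks and the WT list 53429, or 95953 of the 786222 peaks in the 7 lists of the series. The 20000 peaks with the highest fold enrichment in each list were searched for peaks that the whole of the other list lacked, and for shared peaks that changed rank or width. A stretch of chromosome 16, from 36 to 37 Mb, was left out of these counts and is described at the end.

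MZsox19b embryos carried neither maternal nor zygotic product of sox19b, which had been disrupted with TAL effector nucleases so that the reading frame ends early (allele m1434). WT embryos were of the AB/TL background, which the labels also give for the mutants. The third genotype of the series, MZspg, lacks maternal and zygotic Pou5f3 (allele m793), and its H3K4me3 list was used only to ask whether a peak was present in another mutant. All were whole embryos pooled from many crosses at 4.3 hours post fertilization (hpf), the age at which WT embryos are at dome stage. Mutants were staged by WT embryos of the same age. The paper reports that, after the start of zygotic transcription, MZsox19b embryos reach developmental landmarks later than WT. Loss of Sox19b and a difference in developmental stage therefore cannot be told apart here. H3K27ac, the acetylation of lysine 27 on the same histone, had 2 replicate libraries in MZsox19b and 1 in WT, the WT library holding material of 2 ChIP experiments pooled before sequencing.

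H3K4me3 is deposited by the COMPASS family of methyltransferases and sits around the start sites of active or poised genes, usually as a broad domain over a CpG-rich promoter. H3K27ac is laid down by the acetyltransferases p300 and CBP and marks both active promoters and active enhancers, so a promoter in use usually carries the pair of marks. Sox19b is the SoxB1 factor that the zebrafish egg provides, and it binds DNA in many enhancers at the time when the embryonic genome is first transcribed. Zygotic SoxB1 relatives (sox2, sox3 and sox19a) are expressed later in the same embryos.

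A peak carries a position in the danRer11 assembly, a width, and a fold enrichment, which is the height of the ChIP signal at the peak summit over the local background of the pooled inputs. The peak lists hold no read counts. By the sequencing totals that accompany the study, the MZsox19b and WT H3K4me3 libraries were of similar depth and the MZspg one was shallower. With 1 H3K4me3 library per genotype no test between genotypes was possible. Intervals given below are Wilson 95% intervals for a share, which cover counting error only.

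The 2 lists differed in scale before any peak was compared. Fold enrichment reached 310-fold in MZsox19b and 156-fold in WT, and the peak of rank 20000 stood at 6.73-fold in MZsox19b and 3.82-fold in WT. The MZsox19b list was shorter but covered more of the genome, 32.2 Mb against 27.3 Mb in WT, and its median peak was 507 bp wide against 310 bp in WT. The same direction held for H3K27ac, where median peaks were 364 and 361 bp wide in the MZsox19b replicates and 247 bp in WT. Peaks were therefore compared by their rank within their own list. At the edge, 69 MZsox19b peaks inside and 54 outside the 20000 tied at the same fold, of which 30 and 18 were missing from WT. In WT, 240 inside and 129 outside tied, of which 74 and 52 were missing from MZsox19b.

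Most strong H3K4me3 peaks were present in both genotypes. Of the 20000 highest MZsox19b peaks, 1465 had no overlapping WT peak of any strength (7.33%, interval 6.97 to 7.69%). Of the 20000 highest WT peaks, 1549 had no overlapping MZsox19b peak (7.75%, interval 7.38 to 8.12%). Over the whole lists these shares were 35.4% for MZsox19b and 46.9% for WT, and below rank 20000 they were 60.4% and 70.3%. Absence from the other genotype was thus mostly a property of weak peaks.

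Among the 20000, the missing peaks gathered at the low end. Of the 2000 highest MZsox19b peaks, 0 were missing from WT (upper limit 0.15% from 3 counts), and the next 4 classes of 2000 peaks held 1, 2, 1 and 13. The last class, ranks 18001 to 20000, held 665 (33.3%). WT peaks showed the same course with more missing near the top, at 1, 4, 15, 24 and 48 in the first 5 classes and 643 (32.2%) in the last. Ranks 10001 to 20000 held 1448 of the 1465 MZsox19b peaks and 1457 of the 1549 WT peaks, which left 17 missing peaks among the 10000 highest in MZsox19b and 92 in WT.

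**Figure D1:**
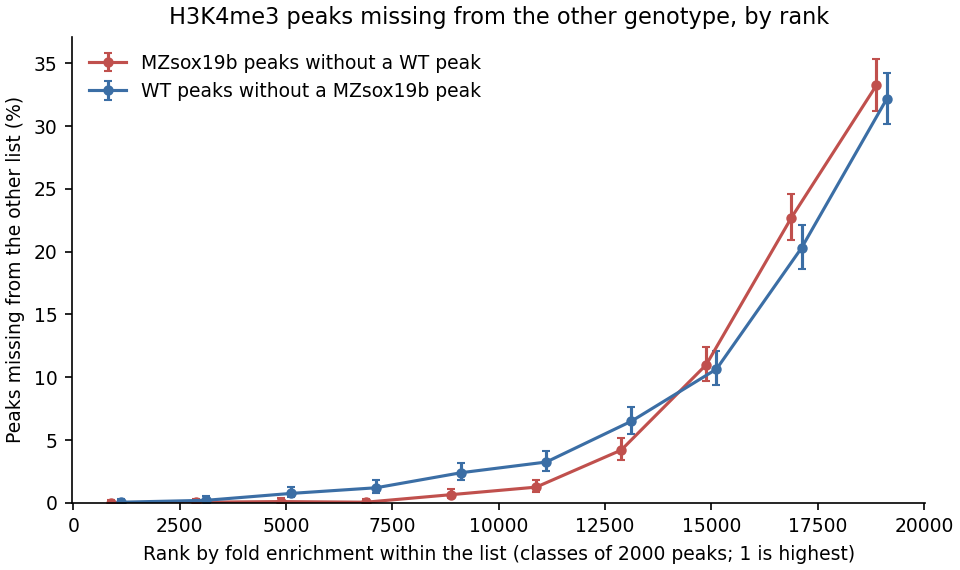
Share of H3K4me3 peaks (%) that had no overlapping peak in the other genotype, by rank within the own list in classes of 2000 peaks, for MZsox19b (red) and WT (blue). Points are drawn slightly apart, and bars are Wilson 95% intervals for counting error. Up to rank 12000 the shares are at most 1.25% (MZsox19b) and 3.25% (WT), and they reach 33.3% and 32.2% in the last class.

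The strongest MZsox19b peak without a WT counterpart lay at chr14:15104819-15105301, with rank 3616, a fold enrichment of 83.2 and a width of 483 bp. The nearest WT H3K4me3 peak was 27521 bp away. H3K27ac was 20.1-fold and 12.8-fold enriched there in the MZsox19b replicates, and WT had no H3K27ac peak. The peak was therefore absent in WT from both marks.

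The next in rank was a wide MZsox19b peak of 3312 bp at chr7:46252648-46255959 (57.5-fold), 79709 bp from any WT H3K4me3 peak. It also had H3K27ac in both MZsox19b replicates (9.46-fold and 8.01-fold) and none in WT, and a weak MZspg H3K4me3 peak of 3.03-fold. Of the remaining 3 of the 5 highest, those at chr5:11900264-11901178 (47.9-fold) and chr2:55014265-55015119 (35.2-fold) had H3K27ac in both MZsox19b replicates and none in WT. The peak at chr24:22645885-22647294 (57.2-fold) was the only one of the 5 with WT H3K27ac, at 2.49-fold, against 11.4-fold and 7.44-fold in the MZsox19b replicates. It lay 671 bp from a WT H3K4me3 peak, and the chromosome 5 peak lay 327 bp from one, so for these the WT list held a neighbouring peak rather than none. MZspg had an H3K4me3 peak of 6.98-fold at the chromosome 24 peak and none at those on chromosomes 14, 5 and 2.

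The strongest WT peak without a MZsox19b counterpart lay at chr8:2505356-2506493, with rank 1910, a fold enrichment of 64.1 and a width of 1138 bp. Neither MZsox19b replicate had H3K27ac there, whereas WT H3K27ac was 19.8-fold enriched and ranked 408 among the WT H3K27ac peaks. MZspg embryos kept H3K4me3 at this place, at 37.2-fold. A WT peak at chr20:27748678-27751228 (46.6-fold, 2551 bp) had the same pattern, with no H3K27ac in the MZsox19b replicates, 10.9-fold in WT, and a MZspg H3K4me3 peak of 67.5-fold.

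The WT peaks at chr22:7566721-7567882 (47.1-fold) and chr5:42091936-42093539 (41.1-fold) also lacked H3K27ac in both MZsox19b replicates and had it in WT, at 12.2-fold and 5.25-fold. MZspg had an H3K4me3 peak of 10.7-fold at the former and none at the latter. Only the peak at chr5:54263660-54265624 (46.4-fold) had H3K27ac in the MZsox19b replicates, at 5.73-fold and 5.88-fold, beside 7.08-fold in WT. The H3K27ac rank was lower in the replicates, at 17273 and 14715 against 6471 in WT, in lists of differing length. MZspg had no H3K4me3 peak there. Thus 4 of these 5 WT peaks were overlapped by neither mark in MZsox19b, and 4 of the 5 MZsox19b peaks above by neither mark in WT. The chromosome 5 peak of those MZsox19b peaks still had a WT H3K4me3 peak 327 bp away.

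H3K27ac was then read at all missing peaks, since it comes from other libraries than the ones that chose them. Both marks were called against pooled inputs, so a difference of the genome between the fish lines would show in both. At the 1465 MZsox19b peaks missing from WT, an H3K27ac peak was present at 71.1% in MZsox19b replicate 1 and 64.8% in replicate 2 (68.0% ± 4.49, SD, n = 2 replicates), but at 25.2% in WT (interval 23.0 to 27.5%). At the 1549 WT peaks missing from MZsox19b, H3K27ac was present at 29.0% in replicate 1 and 40.0% in replicate 2 (34.5% ± 7.81, SD, n = 2 replicates), but at 81.2% in WT (interval 79.2 to 83.1%). In both directions H3K27ac was more frequent in the genotype that had the H3K4me3 peak, by a gap larger than that between the MZsox19b replicates. The spread of WT is unknown, since its H3K27ac library stands alone. H3K27ac peaks covered 89.2 and 109 Mb in the replicates and 50.6 Mb in WT, a difference that was not equalized.

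Weak H3K4me3 peaks carry H3K27ac less often in any case, so the missing peaks were set beside shared peaks weighted to the same ranks, a comparison added after the shares had been seen. For MZsox19b the weighted shared peaks had H3K27ac at 76.8% in replicate 1, 73.6% in replicate 2 and 54.7% in WT. Missing minus weighted shared, the difference for MZsox19b peaks was -5.70 and -8.77 percentage points in the replicates and -29.5 points in WT. For WT peaks the weighted shared values were 73.4% in replicate 1, 74.3% in replicate 2 and 63.5% in WT. For WT peaks the difference was -44.4 and -34.3 points in the replicates and 17.7 points in WT.

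**Figure D2:**
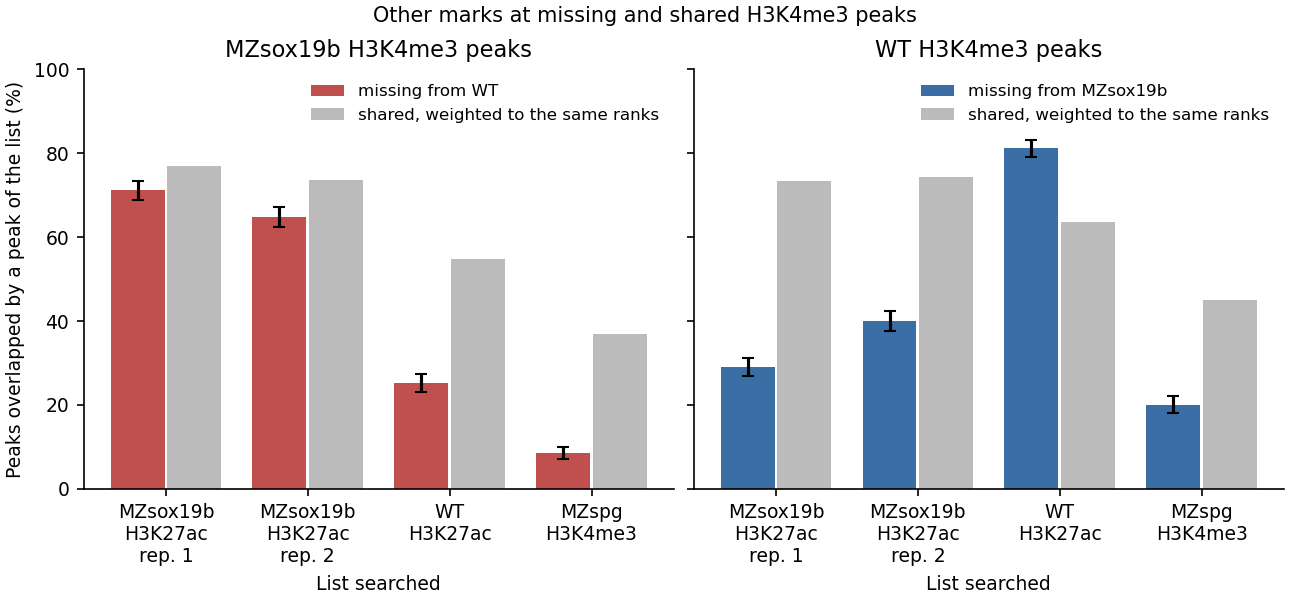
Share of H3K4me3 peaks (%) overlapped by a peak of each H3K27ac list or of the MZspg H3K4me3 list, for MZsox19b peaks (left) and WT peaks (right). Coloured bars are missing peaks with Wilson 95% intervals for counting error, and grey bars are shared peaks weighted to the ranks of the missing ones. Missing MZsox19b peaks had WT H3K27ac at 25.2% and missing WT peaks at 81.2%, whereas the grey bars stand at 54.7% and 63.5%.

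Read peak by peak, the most frequent pattern among missing MZsox19b peaks was H3K27ac in both MZsox19b replicates and not in WT, at 553 peaks (37.7%). A further 341 (23.3%) had H3K27ac in all 3 lists and 362 (24.7%) in none, while 6 had it in WT alone. Among missing WT peaks, 650 (42.0%) had H3K27ac in WT alone, 394 (25.4%) in all 3 lists and 244 (15.8%) in none, and 20 had it in both MZsox19b replicates but not in WT. A difference in H3K4me3 therefore came with the same difference in H3K27ac at the largest group of peaks, which was still a minority. In a smaller group the acetylation was present throughout. At shared MZsox19b peaks, of all ranks, H3K27ac in both MZsox19b replicates and not in WT was found at 12.9%, and in all 3 lists at 74.5%. At shared WT peaks, H3K27ac in WT alone was found at 2.82%, and in all 3 lists at 75.4%. These shares of shared peaks were not weighted to the ranks of the missing ones.

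The MZsox19b replicates differed at these places. In 186 missing WT peaks (12.0%), H3K27ac was present in WT and replicate 2 and absent from replicate 1, against 28 with the replicates the other way round. Replicate 2 has the longer list, with 172867 peaks against 141070 in replicate 1 and 125602 in WT.

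Where H3K27ac was present at missing peaks it was weaker than at shared peaks. At missing MZsox19b peaks its median fold was 3.65 in replicate 1, 3.18 in replicate 2 and 2.72 in WT, beside 6.74, 5.53 and 4.69 at shared peaks. At missing WT peaks the medians were 3.09 in replicate 1, 2.99 in replicate 2 and 3.38 in WT, beside 7.02, 5.66 and 4.59 at shared peaks. The lower medians go with the lower H3K4me3 rank of the missing peaks, which these medians do not adjust for. Over the whole H3K27ac lists the medians were lower still, at 2.62 in replicate 1, 2.35 in replicate 2 and 2.62 in WT.

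MZspg embryos, which have Sox19b, had an H3K4me3 peak at 125 of the missing MZsox19b peaks (8.53%, interval 7.21 to 10.1%), against 36.99% of rank-weighted shared peaks. At missing WT peaks the count was 311 (20.1%, interval 18.2 to 22.1%), against 45.0%. Peaks seen in 1 genotype of the pair were therefore mostly absent from MZspg as well. The MZspg list is the shortest of the 3, with 22484 peaks.

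Missing peaks were narrower than shared ones. Their median width was 620 bp in MZsox19b, against 1097 bp for shared MZsox19b peaks, and 349 bp in WT, against 833 bp for shared WT peaks. The difference was smaller in the lower ranks alone, where missing peaks still ranked below shared ones. Among ranks 10001 to 20000 the medians of missing and shared peaks were 617 and 758 bp in MZsox19b and 340 and 522 bp in WT. In the last class of 2000, missing MZsox19b peaks were as wide as shared ones (576 against 571 bp), while missing WT peaks were narrower (299 against 379 bp). Widths of 1 kb or more were found in 188 missing MZsox19b peaks (12.8%) and 118 missing WT peaks (7.62%), beside 56.4% and 37.7% of shared peaks.

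Missing peaks were seldom edges of a peak in the other genotype. The nearest H3K4me3 peak of the other list was a median of 8696 bp from missing MZsox19b peaks and 8202 bp from missing WT peaks. It lay within 1 kb for 180 (12.3%) and 200 (12.9%), and more than 50 kb away for 110 (7.51%) and 136 (8.78%). Within the own list, missing MZsox19b peaks were a little more isolated than shared ones, with medians of 6826 and 5207 bp to the next MZsox19b peak. Missing WT peaks were closer to their neighbours, 2487 bp against 5462 bp for shared WT peaks, and 62.9% had another WT peak within 5 kb, against 48.2%.

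The distance to the strongest peaks of the own genotype was also read for missing and shared peaks. The 5000 highest peaks of the own list were within 5 kb of 8.12% of missing MZsox19b peaks and 4.33% of missing WT peaks, against 32.4% and 32.7% of shared peaks. Nearly all of these 5000 are themselves shared peaks, and each was counted as near to itself. The higher shares of shared peaks are therefore not a measure of distance. Ranks 10001 to 20000 hold none of the 5000. There the shares were 8.01% for missing and 6.81% for shared MZsox19b peaks, and 3.77% for missing and 7.04% for shared WT peaks. A greater distance was thus seen there for missing WT peaks but not for missing MZsox19b peaks. Within these ranks missing peaks still ranked lower, at medians of 17783 against 14426.5 in MZsox19b and 17724 against 14517 in WT.

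Chromosome 4 stood apart from all others. Its long arm in zebrafish is late replicating, rich in repeats and in zinc finger genes, and poor in other coding genes. On chromosome 4, 60 of 1664 MZsox19b peaks were missing from WT (3.61%, interval 2.81 to 4.61%), whereas 282 of 2074 WT peaks were missing from MZsox19b (13.6%, interval 12.2 to 15.1%). On the other 24 chromosomes the missing share ran from 6.01% (chromosome 5) to 9.22% (chromosome 15) in MZsox19b and from 4.92% (chromosome 1) to 9.85% (chromosome 17) in WT. Chromosome 4 was thus the lowest for MZsox19b and the highest for WT.

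**Figure D3:**
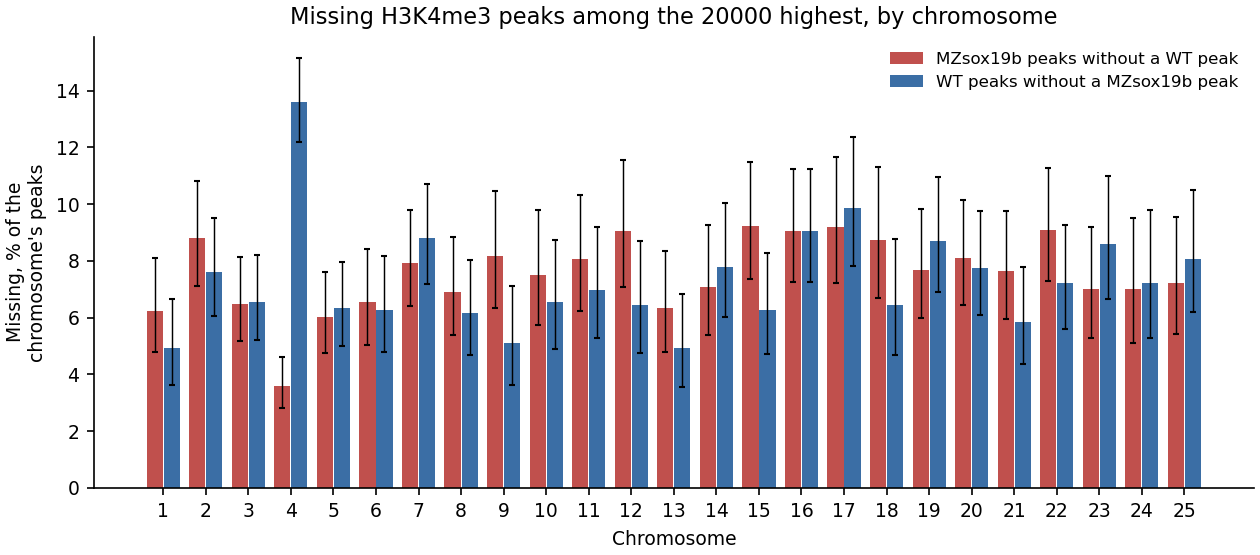
Share (%) of the H3K4me3 peaks among the 20000 highest on each chromosome that had no overlapping peak in the other genotype, for MZsox19b peaks (red, left of each pair) and WT peaks (blue). Bars start at 0, and error bars are Wilson 95% intervals for counting error. Chromosome 4 has the lowest red bar (3.61%) and the highest blue bar (13.6%).

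The excess on chromosome 4 came from beyond 25 Mb, a boundary set after the values had been seen. There, 36 of 1228 MZsox19b peaks and 269 of 1696 WT peaks were missing (2.93% and 15.9%), and below 25 Mb 24 of 436 and 13 of 378 (5.50% and 3.44%). In bins of 5 Mb beyond 25 Mb, the missing share of WT peaks was between 9.57% and 25.9%, with the highest value from 60 to 65 Mb.

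The missing WT peaks beyond 25 Mb carried H3K27ac at 44.2% in MZsox19b replicate 1, 58.4% in replicate 2 and 88.1% in WT. For missing WT peaks elsewhere the values were 25.8%, 36.2% and 79.8%. The gap between genotypes was thus smaller on the long arm than elsewhere, although acetylation was frequent in WT. These peaks were as wide as the missing WT peaks elsewhere (346 against 351 bp) but closer together, with a median of 852 bp to the next WT peak against 3246.5 bp. Chromosome 4 held 18.2% of missing WT peaks and 10.4% of the 20000 WT peaks. For MZsox19b these shares were 4.10% and 8.32%. Of the whole lists, chromosome 4 held 7960 of 53429 WT peaks and 4172 of 42524 MZsox19b peaks. Shared WT peaks of the long arm ranked lower than those elsewhere (median 10737 against 9152.5), and the shares on chromosome 4 were not compared at like rank.

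WT peaks of the long arm that were shared also fell in rank more often, in a comparison not matched for rank. Of 1254 long-arm WT peaks among the 20000 highest with a single MZsox19b partner of any rank, 273 (21.8%) had that partner below rank 20000, against 10.6% of 15548 elsewhere. A fall of 5000 or more places was found in 23.0% of them and in 12.1% elsewhere, and the median places gained in MZsox19b were -554.5 and -113. Starting from MZsox19b peaks, the WT partner was below rank 20000 for 8.15% of 1068 on the long arm and 14.1% of 16188 elsewhere. Among the 981 long-arm pairs with both members in the 20000, which leaves out peaks that dropped lower, 47 (4.79%) fell and 29 (2.96%) rose by 5000 or more, against 3.62% and 4.16% elsewhere. Their median width ratio of MZsox19b over WT was 1.20, against 1.28 elsewhere.

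Some missing WT peaks came in runs. Joining missing peaks with gaps of at most 10 kb gave 116 WT runs of 2 or more, holding 298 peaks (19.2%), and 32 MZsox19b runs holding 66 (4.51%). The longest MZsox19b run held 3 peaks, whereas 12 WT runs held 4 or more, 3 of them on chromosome 4. The runs were singled out after their values had been seen.

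The longest WT run was at chr7:55066643-55092564, with 13 missing peaks over 25.9 kb. H3K4me3 peaks covered 3.44% of this stretch in MZsox19b and 50.2% in WT, and no MZsox19b H3K27ac peak of either replicate fell in it, whereas WT H3K27ac peaks covered 46.0%. The fold enrichment was moderate, with a maximum of 2.07 in MZsox19b, 9.60 in WT and 3.75 in MZspg, where 8 H3K4me3 peaks covered 9.71%. The stretch was thus covered to a similar extent by both marks in WT and nearly bare of them in MZsox19b.

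A run at chr17:39948428-39965386 held 10 missing peaks and had no H3K4me3 peak and no H3K27ac peak in MZsox19b, while WT H3K4me3 covered 16.8% and WT H3K27ac 15.9%. The runs at chr5:58628673-58645526 and chr17:46474228-46493073, with 7 and 6 missing peaks, had 3 and 2 weak MZsox19b H3K4me3 peaks beside 17 and 12 in WT, and MZspg had 8 and 10. At chr4:53469821-53498282, 7 peaks were missing, 11 MZsox19b peaks of at most 3.16-fold remained beside 27 WT peaks of up to 7.14-fold, and H3K4me3 covered 12.3% in MZsox19b and 68.8% in WT.

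In these stretches both marks were low in MZsox19b over many kilobases. The background of the peak calls pooled the inputs of all genotypes, so a difference of the marks and a difference of the genome between the fish lines cannot be told apart. With all runs left out, H3K27ac at missing MZsox19b peaks was present at 71.1% and 64.4% in the replicates and 25.7% in WT. At missing WT peaks outside runs it was present at 30.9% and 42.0% in the replicates and 80.0% in WT. The H3K27ac pattern was thus kept without the runs, with a slightly smaller gap at missing WT peaks. Leaving out runs does not separate marks from genome, since peaks outside runs were called against the same pooled inputs. There too the 2 cannot be told apart.

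Shared peaks were wider in MZsox19b. Of 25472 pairs in which 1 MZsox19b peak and 1 WT peak overlapped each other and no other peak, 14887 had both members among the 20000 highest. Their median width was 1154 bp in MZsox19b and 891 bp in WT, and the median ratio of MZsox19b over WT was 1.28 (95% interval 1.27 to 1.28 from order statistics, counting error only). The MZsox19b peak was the wider in 13254 pairs (89.0%). It was 2-fold or more wider in 924 pairs and 2-fold or more narrower in 65.

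The extra width lay mostly on both flanks. In 11144 pairs (74.9%) the MZsox19b peak reached further on both sides, and in 2977 (20.0%) on 1 side. The summits stayed in place, with a median gap of 27 bp, and 94.9% were within 200 bp of each other. The median ratio was 1.33 for the pairs of highest mean rank (1 to 2000), 1.24 at mean ranks 5001 to 10000 and 1.33 at 15001 to 20000. Widening was thus found in every class of these pairs, while peaks below rank 20000 were not measured. In base pairs the median excess of MZsox19b was 545.5 bp in the first of these classes and 146.5 bp in the last.

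**Figure D4:**
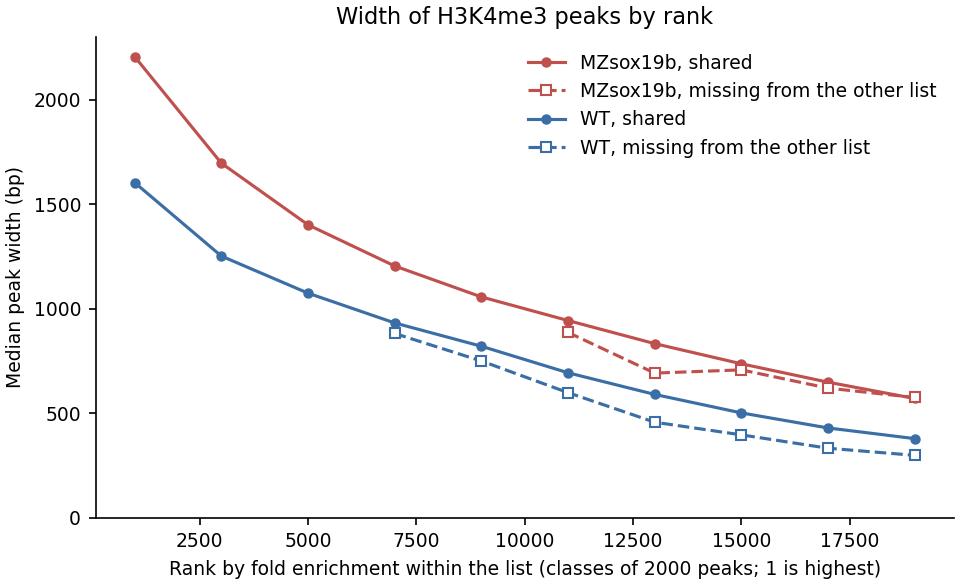
Median width (bp) of H3K4me3 peaks by rank within the own list in classes of 2000 peaks, for MZsox19b (red) and WT (blue). Filled circles are peaks shared with the other list and open squares missing ones, drawn for classes with at least 20 missing peaks. Shared MZsox19b peaks lie above shared WT peaks in every class, and missing WT peaks lie below shared WT peaks.

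The wider calls also bridged neighbouring peaks. A MZsox19b peak overlapped 2 or more WT peaks in 1055 of 20000 cases (5.28%), with a median width of 1854 bp and up to 7 WT peaks under 1 MZsox19b peak. A WT peak overlapped 2 or more MZsox19b peaks in 260 of 20000 (1.30%), with up to 5. The fold enrichment of pairs was higher in MZsox19b as well, with a median ratio of 2.03, and MZsox19b H3K27ac peaks were wider than WT ones, as the whole-list values above showed. Between the H3K27ac replicates, peaks of replicate 2 were 1.02 times as wide as those of replicate 1 in median. The part of depth and of immunoprecipitation efficiency in the width was not tested.

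The order of shared peaks was largely kept among pairs with both members in the 20000. Spearman's rho between the ranks of the 14887 pairs was 0.895, a description over peaks that share the background and lie near each other. Over 10837 pairs of the H3K27ac replicates of MZsox19b, another mark, rho was 0.825. Of the 20000 highest peaks of replicate 1, 0 were missing from replicate 2 (up to 0.015%), while 39 of replicate 2 were missing from replicate 1. The 20000 are 14.2% and 11.6% of these replicate lists, but 47.0% of the MZsox19b and 37.4% of the WT H3K4me3 list. The counts of missing H3K27ac and H3K4me3 peaks are therefore not comparable, and neither are the rho values of the 2 marks. The median shift was 1255 places, and 92.2% of pairs moved by fewer than 5000. These pairs leave out 1915 whose MZsox19b peak and 2369 whose WT peak ranked below 20000, which limits the shifts seen. The class of the 2000 highest in both lists held the most pairs, 1467, but peaks at the very top can move only downwards.

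**Figure D5:**
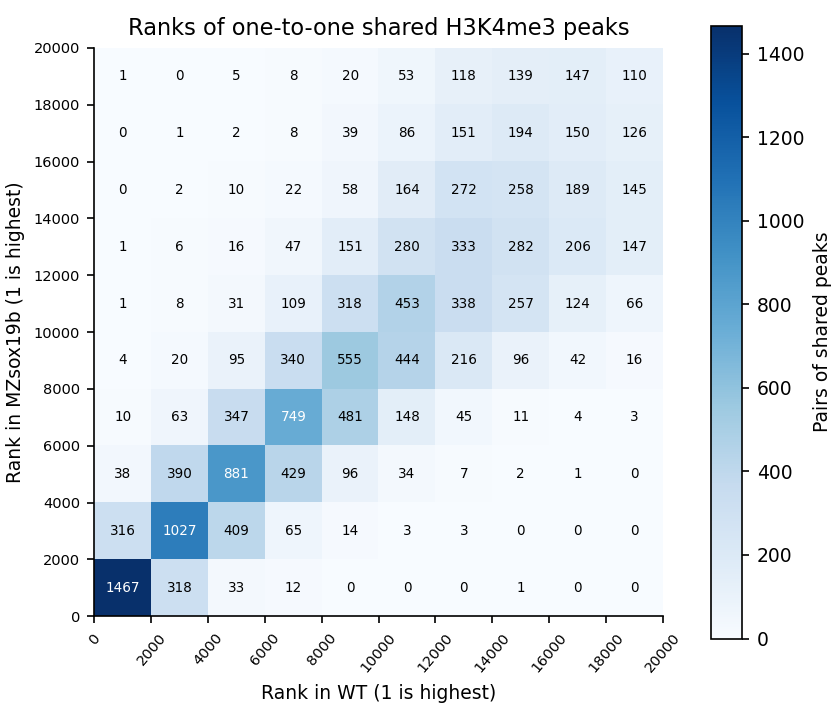
Number of one-to-one pairs of shared H3K4me3 peaks by rank in MZsox19b (vertical axis) and rank in WT (horizontal axis), in classes of 2000 ranks, with rank 1 the highest. Darker squares hold more pairs. The corner square of the highest ranks holds 1467 pairs, and the spread around the diagonal widens towards low ranks.

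A gain of 5000 or more places in MZsox19b was found in 607 pairs (4.08%) and a fall of that size in 550 (3.69%). Shifts of 10000 or more were rare among these pairs, with 12 up and 34 down. Outside the chromosome 4 long arm, 3.62% of the pairs with both members in the 20000 fell and 4.16% rose by 5000 or more. With partners of any rank, only moves to a lower rank in the list not used for selection had larger shares. That direction follows from choosing peaks that are high in 1 list. Of WT peaks among the 20000 highest, 12.1% fell and 3.72% rose in MZsox19b. Of MZsox19b peaks among the 20000 highest, 16.3% had risen and 3.11% had fallen from their WT rank. With both members in the 20000, pairs that rose were wider in MZsox19b (median 963 bp against 485 bp in WT, median ratio 1.82). Pairs that fell were narrower (709.5 against 819.5 bp, median ratio 0.923). The ratio was 1.28 in the 13730 pairs that moved less. Width goes with rank within each list, so these ratios are not separate from the shifts. Near the ranks of pairs that rose, shared medians were 944 bp in MZsox19b (ranks 10001 to 12000) and 430 bp in WT (16001 to 18000). Near those of pairs that fell, they were 649 bp in MZsox19b (16001 to 18000) and 821 bp in WT (8001 to 10000).

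H3K27ac was also read at the shifted pairs. Among the 607 that rose, H3K27ac was present at 91.1% and 87.8% in the MZsox19b replicates and 55.7% in WT. Among the 550 that fell, it was present at 81.1% and 79.6% in the replicates and 85.8% in WT. The pairs that moved less had 94.1% and 92.5% in the replicates and 83.4% in WT, but their ranks differ from those of the shifted pairs. The pairs that rose had a median WT rank of 17046, and all shared WT peaks of ranks 16001 to 18000 had H3K27ac at 72.1% and 71.1% in the replicates and 58.7% in WT. Beside peaks of similar WT rank, the pairs that rose were thus higher in the MZsox19b replicates and close to them in WT. Their median MZsox19b rank was 10412, and shared MZsox19b peaks of ranks 10001 to 12000 had 92.3% and 89.4% in the replicates and 69.1% in WT. Beside these, the pairs that rose were close in the replicates and lower in WT. The pairs that fell had a median WT rank of 9641, and shared WT peaks of ranks 8001 to 10000 had 94.0% and 92.0% in the replicates and 83.4% in WT. The pairs that fell were lower than these in the replicates and close to them in WT. Their median MZsox19b rank was 16965.5, and shared MZsox19b peaks of ranks 16001 to 18000 had 77.2% and 72.9% in the replicates and 52.7% in WT. Beside these, the pairs that fell were higher in the replicates and in WT, most so in WT. The reading thus depended on the genotype whose rank was matched.

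Where both genotypes had H3K27ac, its rank was compared as well. In pairs that rose, the H3K27ac rank was higher in MZsox19b than in WT at 88.0% by replicate 1 and 73.9% by replicate 2, with medians of 15419.5 and 11744 places gained. In pairs that fell it was higher at 28.8% and 26.0%, with medians of -7212 and -10960.5 places. In pairs that moved less it was higher at 62.8% and 48.3%, and the replicates had medians of opposite sign (1241 and -127 places). The H3K27ac lists differ in length. With each cut to 125602 peaks, the rank was higher in MZsox19b at 88.6% and 75.7% of pairs that rose, 63.0% and 48.8% of those that moved less and 29.0% and 27.1% of those that fell. With the rank taken as a percentage of list length these values were 91.0% and 87.4%, 68.9% and 66.5%, and 34.9% and 35.9%. In each version and replicate, pairs that rose lay above and pairs that fell below those that moved less.

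The pair that rose most lay at chr4:77448792-77450451, ranked 1664 in MZsox19b and 14385 in WT, with a fold enrichment of 128 in MZsox19b and 5.99 in WT and widths of 1660 and 382 bp. H3K27ac was 37.3-fold and 21.9-fold in the MZsox19b replicates and 4.03-fold in WT, and MZspg H3K4me3 was 9.24-fold. MZsox19b was thus the stronger of the genotypes in both marks there. The next pairs were at chr5:72288080-72289775 (50.2-fold in MZsox19b and 4.19-fold in WT), chr7:71565806-71566980 (52.9-fold and 4.34-fold) and chr19:18981289-18982089 (33.9-fold and 3.82-fold). The fifth was at chr23:26501404-26502372, with 40.1-fold in MZsox19b and 4.03-fold in WT. All 5 had H3K27ac in both MZsox19b replicates, and those on chromosomes 5 and 19 had none in WT.

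The pair that fell most lay at chr17:9929421-9930156, ranked 18609 in MZsox19b and 1600 in WT, with a fold enrichment of 7.74 in MZsox19b and 69.2 in WT and widths of 736 and 2253 bp. H3K27ac was 5.06-fold and 2.35-fold in the MZsox19b replicates and 4.05-fold in WT, at H3K27ac ranks of 20874, 82791 and 17820, so the replicates differed here. At chr23:17354535-17355702 the H3K4me3 fold was 8.66 in MZsox19b and 59.2 in WT, and here H3K27ac was lower too, at 2.53-fold and 2.16-fold in the replicates and 13.1-fold in WT. The pairs at chr22:8753503-8753850 and chr25:21029652-21030761 had no H3K27ac peak in either MZsox19b replicate and had one in WT, at 6.84-fold and 2.53-fold. The fifth, at chr25:25310146-25310878, had H3K27ac in all 3 lists, at 2.25-fold and 2.10-fold in the replicates and 3.56-fold in WT.

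The largest width ratios were found at low WT ranks. At chr5:53125792-53126990 the MZsox19b peak was 1199 bp wide and the WT peak 212 bp (ratio 5.66), with nearly equal ranks of 17822 and 17459. The other 4 widest, with ratios from 4.84 to 5.48, ranked between 6539 and 10859 in MZsox19b and between 13426 and 15938 in WT, and none of the 5 had WT H3K27ac while all 5 had it in both MZsox19b replicates. At the other end, a peak of 275 bp in MZsox19b at chr14:10617536-10617810 faced one of 2907 bp in WT (ratio 0.0946). All 5 of the narrowest had H3K27ac in WT, and 3 had it in both MZsox19b replicates.

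At equal list size, with the WT list cut to its 42524 highest peaks, 1746 MZsox19b peaks (8.73%, interval 8.35 to 9.13%) and 1549 WT peaks (7.75%) were missing. The excess of WT over MZsox19b was thus turned round, and its direction changed under other settings too, so which list lacked more is not settled by these data. Over whole lists of this size the shares were 40.1% and 38.6%. With the H3K27ac lists also cut to 125602 peaks, missing MZsox19b peaks had H3K27ac at 69.9% and 59.7% in the replicates and 27.5% in WT, and missing WT peaks at 26.7% and 36.2% in the replicates and 81.2% in WT. Chromosome 4 held 75 (4.30%) of missing MZsox19b and 282 (18.2%) of missing WT peaks. The MZsox19b H3K4me3 list and the WT H3K27ac list had these lengths already and were not cut. The 1549 missing WT peaks, their 282 on chromosome 4 and their 81.2% with WT H3K27ac could therefore not change.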

How the data were processed

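The members and lists of this comparison were chosen with earlier results of these data known. According to the methods of the study and its reporting summary, paired reads were mapped to danRer11 with Bowtie2 (2.3.2.2 in the submitters' processing notes), and peaks were called per library with MACS2 against pooled inputs. The lists hold no read counts, but the reporting summary gives the reads of each library, which were not used here to rescale peaks. The deposited fold enrichment column is a ratio of ChIP signal to background, made by the authors. Significance stands in the deposited columns as −log10 p and −log10 q, with −log10 q at 1.30 or more in all lists used. The authors' score equals 10 times that −log10 q without its decimals.

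Peaks on chromosomes 1 to 25, without 36 to 37 Mb of chromosome 16, were ranked by fold enrichment with Python 3.11.15, numpy 2.4.6, pandas 2.3.3 and scipy 1.17.1. A peak was missing when it overlapped no peak of the other whole list, where 1 bp in common was enough to count. Shared pairs were peaks that overlapped each other and nothing else. Shares weighted to ranks used classes of 2000 ranks. The overlap functions were tested on simulated data. No test was run and no p-value is given, since H3K4me3 had 1 library per genotype. The peaks named one by one were the 5 highest-ranking missing peaks of each list and the 5 pairs with the largest rise, fall, width ratio and inverse width ratio. Runs, tied peaks and chromosome 4 were described after their values had been seen. Alternatives were lists of equal size or covered length, other numbers of highest peaks, ranking by −log10 q, other overlaps, merging, all sequences, a stricter −log10 q, a minimum width, and leaving out a replicate, chromosome 4 or runs. No annotation or sequence of danRer11 was used here, so peaks are given by position without gene names, and lists of genes and motifs considered at the outset were not used. The MZspg H3K27ac list was not used here.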

Additional observations from a re-analysis of the deposited data

Results flagged for a closer look

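The peaks left out of the comparison also carried signal. On chromosome 16 from 36 to 37 Mb, MZsox19b had 48 H3K4me3 peaks covering 30.1 kb, with a maximum of 235-fold, and WT had 205 covering 191 kb, with a maximum of 291-fold. Of these, 16 MZsox19b peaks (33.3%) and 176 WT peaks (85.9%) had no overlapping peak in the other list. On sequences other than chromosomes 1 to 25, MZsox19b had 9058 peaks, of which 36.8% were missing from WT, and WT had 10337, of which 43.0% were missing from MZsox19b. The methods of the study say that such scaffolds were left out, yet the deposited lists hold peaks on them.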

How the results depend on the processing

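No paired analysis was possible because each H3K4me3 library stands alone and only H3K27ac of MZsox19b was replicated. Peaks missing from the other genotype numbered 1 in MZsox19b and 8 in WT among the 5000 highest, and 17 and 92 among the 10000 highest. With all sequences they numbered 550 and 732. Requiring that 50% of a peak be covered gave 3999 in MZsox19b and 2055 in WT, a −log10 q of at least 5 gave 2579 and 1864, equal covered length 1465 and 2663, and a width of at least 500 bp 1007 and 448 (5.69% and 3.05% of such peaks). More were thus missing from WT than from MZsox19b in 3 of these 4 settings, and fewer at equal covered length. Under the 50% rule a peak counts as missing even where a narrower peak overlaps it, and shared peaks were wider in MZsox19b. With chromosome 4 left out and ranks counted anew, 2161 and 2173 were missing. With an H3K27ac peak allowed within 1000 bp, H3K27ac was found at 75.5% of missing MZsox19b peaks in MZsox19b and 35.4% in WT, and at 45.0% of missing WT peaks in MZsox19b and 86.4% in WT. At equal list size, WT H3K27ac at missing MZsox19b peaks was 27.5%. Leaving out 1 MZsox19b H3K27ac replicate gave 64.8% to 71.1% at missing MZsox19b peaks and 29.0% to 40.0% at missing WT peaks. The median width ratio was 1.29 over common regions and 1.30 for the 5000 highest. The rank correlation was 0.870 by −log10 q, 0.795 for the 5000 highest and 0.870 for the 10000 highest. H3K27ac stayed more frequent in the genotype with the H3K4me3 peak within 1000 bp, at equal list size, without either replicate, without chromosome 4 and without runs, the settings in which it was recomputed. Shared peaks stayed wider in MZsox19b over common regions, at equal list size and for the 5000 or 10000 highest. The cause was not tested for any of these shifts. Of 54 alternative values, 34 lay within 1.5 times a count or within the interval or SD of a share, ratio or correlation. Some of these outcomes were fixed beforehand, so the 34 do not measure stability. A single replicate always lies within the SD of the mean of both replicates. Where the searched list was not cut, the main value was repeated. This held for missing WT peaks and their WT H3K27ac at equal list size, and for missing MZsox19b peaks at equal covered length. Counts among the 5000 or 10000 highest are parts of the main counts and could not exceed them. The precision is limited by 1 H3K4me3 library per genotype.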
